A study of Mus musculus with 12 samples.

Results

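Livers of Clk/Clk mice were compared with livers of PPARα-null mice after both had eaten bezafibrate, over every probe set on the array. The arrays were chosen by their titles, and they are 6 of the 12 arrays of the series, 3 for each mutant. The Clk/Clk mutant was on a Jcl:ICR background. The PPARα-null mice came from a cross of the 129S4SvJae-PPARalphatm1Gonz/J line with Jcl:ICR, so the origin of the line and the null allele cannot be told apart. All 12 mice were males of 6 to 12 weeks, kept in 12 h light and 12 h dark, and their livers were taken at ZT14, that is 14 h after lights on. Both mutants, and a wild-type group on the Jcl:ICR background used here as a reference, were given 0.5% (w/w) bezafibrate in the diet for 5 days. Another 3 wild-type mice were untreated. No mutant was left untreated, so a difference of genotype and a difference in the response to the drug cannot be told apart, and the labels do not say whether mice of a group were littermates. The p-values set a difference between group means against the spread between these mice within groups.

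PPARα is a nuclear receptor that, bound to a fatty acid or a fibrate drug, pairs with RXR and turns on genes of fatty acid uptake, peroxisomal and mitochondrial oxidation and ketone production in the liver. CLOCK pairs with BMAL1, the product of Arntl, and turns on the Period and Cryptochrome genes, whose products inhibit the pair, and output genes such as Dbp. Bezafibrate is a fibrate, so the comparison sets livers labelled null for the drug's main receptor beside livers labelled mutant for a clock protein. The study as a whole asks how CLOCK and PPARα share control of liver genes.

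Each value is a log2 expression value of a probe set as deposited, and 1 unit is a doubling of signal. Array pairs correlated at 0.9949 to 0.996 within Clk/Clk, at 0.9943 to 0.9958 within PPARα-null and at 0.9759 to 0.9791 between them, over all probe sets other than array controls. Array medians lay between 5.45 and 5.5, and the values ran from 2.25 to 15. Values above 14 are close to the top of that range, so a difference that reaches there may be too small. A group mean below 4.87, the lower end of the level used to leave out dim probe sets, is near background and makes the difference inexact. The precision of each value is limited by 3 arrays per group. Within groups, the median gene had a residual SD of 0.124.

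The livers of the 2 mutants differed widely. Of 13598 genes tested, 2069 (15.2%) were called, which means a Benjamini-Hochberg adjusted p under 0.05 in limma and a difference of at least 1.5-fold. Of these, 1011 (7.43% of genes tested) were higher and 1058 (7.78%) lower in Clk/Clk than in PPARα-null livers. The difference reached 4-fold in 104 higher and 121 lower genes. The adjusted p alone was under 0.05 for 5031 genes. The values of the 3 Clk/Clk and the 3 PPARα-null mice did not overlap in 6919 genes (50.9%), and in 2052 of the 2069 called genes. Over all 45037 probe sets that are no array controls, 4247 (9.43%) were called.

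Ppara and Clock themselves were read first. Ppara read 10.31, 10.46 and 10.34 in the Clk/Clk mice and 10.04, 9.88 and 9.73 in the PPARα-null mice. Signal was thus still present in every null liver, and the difference of 0.49 (SE 0.142, adjusted p = 0.0186) was under 1.5-fold. Clock read 9.37, 9.32 and 9.07 in Clk/Clk against 7.59, 7.93 and 7.94 in PPARα-null, and its difference of 1.43 (SE 0.159, adjusted p = 3.23e-05) was called. The 3 Ppara probe sets gave differences of 0.32 to 0.49, and the 4 Clock probe sets gave 0.23 to 1.43. The probes' positions against the disrupted part of Ppara or the mutated part of Clock were not analysed here, so these values check neither genotype.

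Genes of fatty acid handling were higher in Clk/Clk in large numbers. Of 25 tested genes of mitochondrial fatty acid oxidation and ketogenesis, 18 were higher and none lower, and the median difference was 0.79, against -0.01 over all genes. Of 32 peroxisomal genes, 22 were higher and 1 lower, with a median of 0.88. Fatty acid uptake, binding and activation had 11 higher and 3 lower of 24, with a median of 0.52, and lipid droplet and triglyceride turnover had 16 higher and 3 lower of 30, with a median of 0.73. The lists were written with earlier results of these data known, so these counts describe the livers and do not test the lists.

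**Figure D1:**
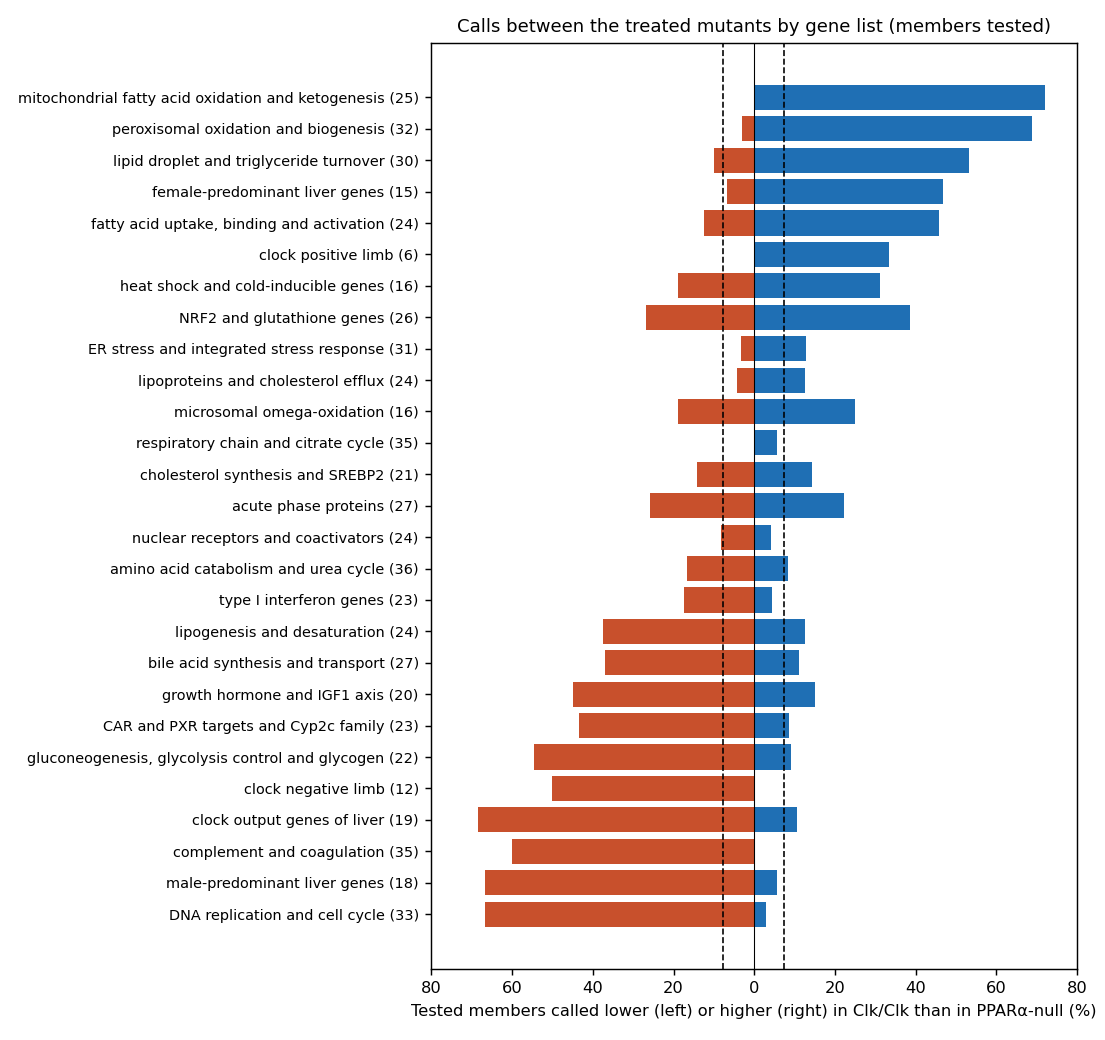
Share of each gene list's tested members called higher (right, blue) or lower (left, orange) in Clk/Clk than in PPARα-null livers, in percent, with the number tested in brackets and the shares over all genes, 7.43% and 7.78%, as dashed lines. Mitochondrial and peroxisomal oxidation stand at the top with 72.0% and 68.8% called higher, and at the foot the list of DNA replication and cell cycle genes has 66.7% called lower.

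The largest difference of all belonged to Hao2, which encodes a peroxisomal hydroxyacid oxidase. Its values were 11.27, 11.40 and 11.59 in Clk/Clk mice and 4.11, 4.48 and 4.75 in PPARα-null mice. The groups were 6.97 apart (SE 0.571, 95% interval 5.72 to 8.22, adjusted p = 3.52e-06), with the null values near background. Treated wild-type mice read 10.42, 9.39 and 9.62 and untreated ones 7.72, 8.30 and 5.41, so the null livers lay below the untreated wild-type livers too. Abcd2, a peroxisomal importer of very long chain acyl-CoA, read 8.71, 8.66 and 8.91 against 3.43, 3.20 and 3.29, again with the null mice near background. Its 3 untreated wild-type values were 5.14, 5.22 and 4.04, between the 2 mutants.

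Acot8, a peroxisomal acyl-CoA thioesterase, read 11.06, 11.05 and 10.97 in Clk/Clk and 8.78, 9.03 and 8.82 in PPARα-null. The difference was 2.15 (SE 0.0872, adjusted p = 2.20e-08), and treated wild type, at 11.21, 11.13 and 11.07, sat with Clk/Clk while untreated wild type, at 8.91, 9.17 and 9.06, sat with the null. Pex11a, whose product divides peroxisomes, showed the same order, with 12.95, 12.91 and 13.03 in Clk/Clk against 10.80, 11.10 and 11.10. Amacr, a racemase that prepares branched fatty acids and bile acid precursors for oxidation, did not follow the drug in wild type. It was 11.86, 11.74 and 11.79 in Clk/Clk and 10.21, 9.97 and 10.03 in the null, while treated and untreated wild type averaged 11.75 and 11.74. The null livers alone were low for this gene. Ehhadh, the bifunctional enzyme of the classical peroxisomal spiral, differed by 0.95 (SE 0.127), and at 14.47 to 14.49 the Clk/Clk values were close to the top of the scale. The lower member, Acox3, a branched-chain acyl-CoA oxidase, had a difference of -0.61. Its call was lost without Clk/Clk mouse 1 or without PPARα-null mouse 1, which brings the count of lower peroxisomal genes to 0.

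In mitochondria, Cpt2, the inner membrane carnitine palmitoyltransferase, read 12.45, 12.47 and 12.44 in Clk/Clk and 10.98, 10.87 and 10.93 in PPARα-null. The groups were far apart beside their spread, at 1.53 (SE 0.0759, adjusted p = 9.39e-08). Etfdh, which passes electrons from acyl-CoA dehydrogenases to the respiratory chain, differed by 1.52, and Acadvl, the very long chain acyl-CoA dehydrogenase, by 1.38. Hadha and Hadhb, the 2 subunits of the trifunctional protein, differed by 1.19 and 1.02. The acyl-CoA thioesterase Acot2 stood higher by 3.23, though Acot1 to Acot4 are similar in sequence and may share probe signal. Cpt1a, the outer membrane enzyme that admits fatty acids to mitochondria, was an exception. It read 11.73, 11.96 and 11.64 in Clk/Clk and 12.04, 12.01 and 11.66 in PPARα-null, and these overlapping values gave a difference of -0.13 (95% interval -0.39 to 0.14, adjusted p = 0.453). Its 3 probe sets disagreed in sign. Respiratory chain and citrate cycle genes had few calls, with 2 higher (Ndufb3 and Cox6b2) and none lower of 35.

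Fgf21, the liver hormone of fasting that PPARα induces, read 8.95, 9.19 and 9.86 in Clk/Clk and 5.06, 5.16 and 4.99 in PPARα-null. The groups were 4.26 apart (SE 0.323, adjusted p = 1.99e-06). Treated wild type was as high as Clk/Clk, with 8.29, 8.72 and 9.83, and the null lay below the untreated wild-type values of 5.71, 5.71 and 5.79. Pdk4, which switches off pyruvate dehydrogenase so that fat is burned in place of glucose, read 13.22, 13.38 and 13.24 in Clk/Clk and 9.13, 10.08 and 10.85 in the null. Here the null livers were far above untreated wild type, at 5.45, 5.48 and 6.46. The difference between the mutants was 3.26 (SE 0.365, adjusted p = 3.54e-05). Vnn1, a pantetheinase and known PPARα target, was placed in the same order, with 13.34, 13.35 and 13.49 in Clk/Clk, 9.36, 10.80 and 11.12 in the null and 6.91, 7.36 and 8.38 in untreated wild type. Mouse 1 was the lowest of the null group for both genes.

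**Figure D2:**
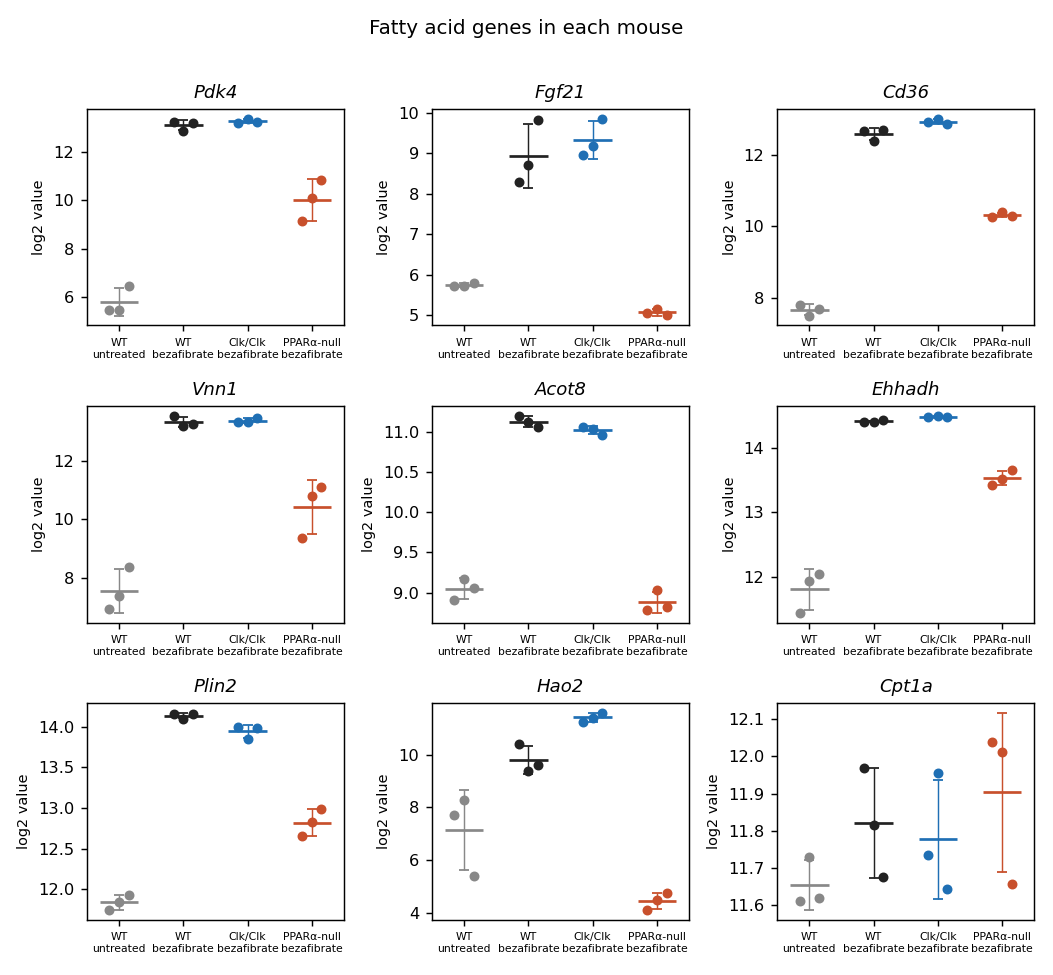
Log2 values of 9 fatty acid genes in each of the 3 mice of 4 groups (points), with the group mean (long bar) and SD (error bar); each panel has its own axis range. For 8 of the genes the 3 Clk/Clk mice lie above all 3 PPARα-null mice (Fgf21 8.95 to 9.86 against 4.99 to 5.16), while for Cpt1a the groups overlap within 11.64 to 12.04.

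Among genes of uptake and binding, the fatty acid translocase Cd36 read 12.93, 13.03 and 12.88 in Clk/Clk and 10.27, 10.40 and 10.29 in PPARα-null. It differed by 2.62 (SE 0.101, adjusted p = 1.38e-08), and the null group lay above untreated wild type (7.79, 7.49 and 7.68). Vldlr, the receptor for very low density lipoprotein, differed by 4.15, the lipase Lpl by 3.63 and the fatty acid transporter Slc27a1 by 2.93. The fatty acid binding protein gene Fabp3 differed by 5.75 (SE 0.417, adjusted p = 1.41e-06) on its brightest probe set, but another Fabp3 probe set gave -0.16. The 3 lower members were Fabp5, another fatty acid binding protein, and the medium-chain acyl-CoA synthetases Acsm1 and Acsm2. Fabp5 read 11.23, 10.26 and 10.71 in Clk/Clk and 13.73, 13.45 and 13.55 in PPARα-null. It had no called drug response in wild type, whose 6 values ran from 12.10 to 13.53, so the Clk/Clk livers were the ones apart.

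Genes that make and coat lipid droplets were among the largest differences. Mogat1, which esterifies monoacylglycerol, read 10.15, 10.23 and 9.96 in Clk/Clk and 6.15, 6.77 and 7.06 in PPARα-null, and the difference was 3.45 (SE 0.233, adjusted p = 8.18e-07). The coat protein gene Plin5 was 2.73 higher, Cidec, which fuses droplets, 2.63 higher, the fat-packaging Fitm1 2.29 higher and the lipase gene Pnpla2 1.62 higher. Plin2, the main droplet coat of hepatocytes, read 14, 13.85 and 13.98 against 12.66, 12.82 and 12.98. Lower in Clk/Clk were Pnpla3, a triglyceride hydrolase, Lpin1, a phosphatidate phosphatase, and Dgat2, which completes triglyceride. Pnpla3 read 6.58, 5.74 and 6.86 in Clk/Clk and 8.05, 8.63 and 9.79 in PPARα-null. Treated wild type was higher still, at 10.09, 9.24 and 9.58, and untreated wild type (6.75, 6.55 and 6.03) was as low as Clk/Clk. The Pnpla3 difference was -2.43 (SE 0.416, adjusted p = 7.85e-04).

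Cyp4a14, a fatty acid omega-hydroxylase and a classical fibrate target, read 14.31, 14.36 and 14.36 in Clk/Clk and 12.38, 13.19 and 13.50 in PPARα-null. The called difference of 1.32 (SE 0.429, adjusted p = 0.0309) is near the top of the scale, and probe signal may be shared within the Cyp4a family. Its adjusted p rose to between 0.0563 and 0.12 when any Clk/Clk mouse, or PPARα-null mouse 1 or 2, was left out. Cyp4f14, another omega-hydroxylase, went the other way, at 5.98, 6.36 and 5.59 in Clk/Clk against 10.33, 10.48 and 10.51. Within the omega-oxidation list 4 genes were higher (Cyp4a14, Aldh3a2, Aldh9a1 and Cyp4f15) and 3 lower (Cyp4f14, Cyp4v3 and Adh4) of 16, with a median of -0.02.

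Fat synthesis genes stood opposite to fat oxidation genes. Of 24 genes of lipogenesis and desaturation, 9 were lower (Thrsp, Pklr, Elovl6, Fasn, Acss2, Elovl2, Fads1, Slc25a1 and Me1) and 3 higher (Scd2, Elovl7 and Elovl3) in Clk/Clk, with a median of -0.47. In wild type the drug raised 15 of the 24 and lowered 1. Thrsp, a nuclear factor of lipogenesis, read 11.17, 8.70 and 10.10 in Clk/Clk and 14.20, 14.13 and 14.23 in the null, a difference of -4.20 (SE 0.471, adjusted p = 3.58e-05). Clk/Clk mice spread over more than 2 units while null mice were nearly alike. Elovl6, which lengthens palmitate, read 9.77, 9.35 and 9.58 against 11.47, 11.69 and 12.48, and treated wild type averaged 11.36 beside 10.24 in untreated wild type. The Clk/Clk livers were therefore the lowest of all 4 groups for this gene, whereas the null livers had the highest mean. Pklr, the liver pyruvate kinase, differed by -3.68.

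Cholesterol synthesis genes were mixed, with 3 higher (Hsd17b7, Insig2 and Hmgcs1) and 3 lower (Stard4, Tm7sf2 and Sc5d) of 21. Without Clk/Clk mouse 3 the lower count was 8. The Clk/Clk list means ran from 9.82 to 10.73, with mouse 3 the highest. Lipoprotein genes had 3 higher (Abcg8, Pltp and Pctp) and 1 lower (Apoa4) of 24. These are 16.7% of the list, near the 15.2% called over all genes. Leaving out Clk/Clk mouse 1 or 2, or PPARα-null mouse 2, made the lower count 3, 2 and 2. Apoa4, an apolipoprotein of triglyceride-rich particles, read 7.73, 7.91 and 9.82 in Clk/Clk and 12.72, 13.21 and 13.32 in PPARα-null. The null livers also exceeded the untreated wild-type values of 11.80, 11.76 and 11.58. Among 24 nuclear receptors and coactivators, Nrip1 was higher and Ppargc1a and Lpin1 were lower, 12.5% of the list and also near that share. The higher count was 2 without Clk/Clk mouse 2, and the lower count was 1 without Clk/Clk mouse 1 or 3 or PPARα-null mouse 1.

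The drug response of wild type gives a measure of these differences from other arrays, since the 6 wild-type and the 6 mutant arrays share none. Bezafibrate raised 1742 genes (12.8%) and lowered 1056 (7.77%) in wild type. Of the raised genes, 597 (34.3%) were higher in Clk/Clk than in PPARα-null and 142 (8.15%) lower. Of the lowered genes, 451 (42.7%) were lower in Clk/Clk and 24 (2.27%) higher. Over all genes tested 7.43% were higher and 7.78% lower, so the 8.15% of raised genes that were lower is near the share of all genes. Counted the other way, 59.1% of the genes higher in Clk/Clk were raised by the drug, and 42.6% of the lower genes were lowered by it. The median difference between the mutants was 0.32 over raised genes and -0.50 over lowered genes. Across all genes the 2 differences had a Pearson correlation of 0.513 and a Spearman correlation of 0.42, as a description, since genes are not independent replicates.

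**Figure D3:**
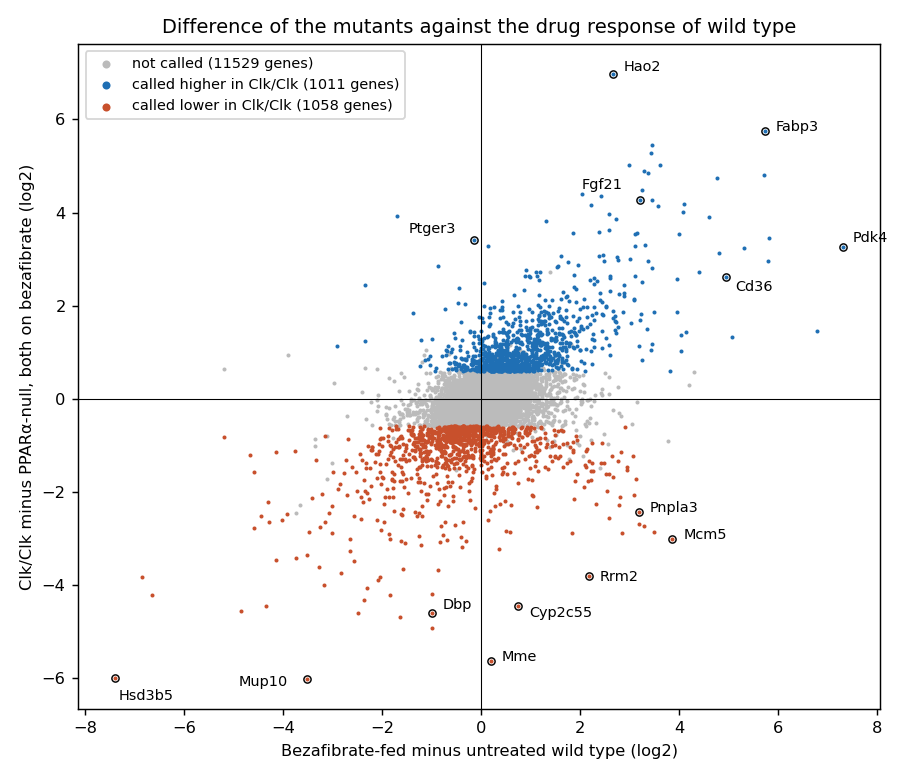
Difference between the treated mutants, Clk/Clk minus PPARα-null (vertical, log2), against treated minus untreated wild type (horizontal, log2), 1 point per gene; blue and orange mark the 1011 higher and 1058 lower genes. Most of the largest differences run from lower left (Hsd3b5) to upper right (Fabp3), with Ptger3, Mme and Cyp2c55 near 0 on the drug axis and Pnpla3, Mcm5 and Rrm2 at lower right.

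Where wild type lay between the mutants also differed among the called genes. For 64.4% of them the treated wild-type mean was nearer to Clk/Clk than to PPARα-null. Of the 1011 genes higher in Clk/Clk, 663 (65.6%) had treated wild type on the Clk/Clk side and untreated wild type on the null side. Bhlhb9 was such a gene, with 10.38, 10.44 and 10.44 in Clk/Clk, 10.43, 10.33 and 10.43 in treated wild type, 4.46, 5.21 and 5.72 in the null and 6.74, 7.43 and 6.72 in untreated wild type. In another 217 (21.5%) both wild-type groups lay on the null side, and in 88 (8.70%) both lay on the Clk/Clk side. A side says only which mutant mean was nearer, and no difference from wild type was required. Of the 1058 lower genes these 3 arrangements held for 495 (46.8%), 310 (29.3%) and 86 (8.13%). The remaining 167 (15.8%) had untreated wild type with Clk/Clk and treated wild type with the null, an arrangement found in 43 (4.25%) of the higher genes.

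Other genes with the largest differences fell outside the lists of fat metabolism. Rad51b, a DNA recombination gene, read 11.60, 11.86 and 12.03 in Clk/Clk and 6.69, 6.78 and 6.93 in PPARα-null. Ly6d, a surface antigen, read 11.66, 11.53 and 11.10 against 6.44, 6.44 and 6.98, and Krt23, a keratin, 9.19, 9.84 and 10.04 against 5.41, 5.71 and 5.41. For each of these the wild-type drug response was in the same direction. That the groups did not overlap was required by the rule that named these genes. Defb1, a defensin, Cd24a, a surface glycoprotein, and Npnt, a matrix protein, were highest in Clk/Clk, with treated wild type lower. Npnt read 8.79, 9.17 and 8.08 in Clk/Clk and 6.08, 5.46 and 7.12 in treated wild type. Its null values, 4.27, 4.46 and 4.12, were near background. Nupr1, a stress-induced nuclear protein, varied among the Clk/Clk mice, at 7.91, 10.08 and 10.81, with 5.46, 5.33 and 5.51 in the null. Serinc2, Trim6, Zmynd12 and Lrrc24 were also among the 20 genes furthest above the null, with differences from 3.98 to 4.48.

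Genes of the clock's negative limb and its output genes were called lower in Clk/Clk more often than higher. Of 12 genes of the negative limb, 6 were lower (Per2, Bhlhe40, Per3, Ciart, Nr1d2 and Cry2) and none higher in Clk/Clk, and of 19 clock output genes 13 were lower and 2 higher (Insig2 and Tubb2a), with a median of -1.13. In wild type the drug lowered 4 and raised none of the negative limb, and lowered 11 and raised 2 of the output genes, so part of these lists also fell with the drug. Of the 6 positive-limb genes tested, Clock and Arntl were higher and none was lower. Earlier results had shown clock genes to be low in these Clk/Clk livers, so the counts add the comparison with the null and not a test of their own.

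Dbp, a transcription factor that CLOCK and BMAL1 drive directly, read 4.96, 4.86 and 7.06 in Clk/Clk and 10.48, 10.06 and 10.13 in PPARα-null. The 6 wild-type values, from 9.42 to 11.42, lay with the null. Its difference was -4.59 (SE 0.500, adjusted p = 2.86e-05), and Clk/Clk mouse 3 was the highest of its group. Usp2, a deubiquitinase with a strong daily rhythm, read 5.38, 5.06 and 6.10 against 10.33, 10.41 and 9.84. Per2 read 6.09, 5.38 and 7.21 against 9.01, 8.63 and 9.17, and Per3 read 6.14, 6.13 and 7.35 against 8.35, 8.43 and 8.31. In all 4 of these genes mouse 3 was the highest Clk/Clk mouse, and it remained below every null mouse. The related factors Tef and Hlf were lower by smaller amounts, with differences of -1.32 and -1.27.

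Compared with treated wild type, which both mutants share as a reference, Dbp stood at -4.45 in Clk/Clk and 0.15 in PPARα-null. Per2 stood at -2.16 and 0.54, with adjusted p of 0.00125 and 0.248 in the same limma fit. Arntl, which encodes BMAL1, read 7.94, 8.32 and 7.33 in Clk/Clk and 5.98, 5.89 and 5.92 in the null, a difference of 1.94 (SE 0.200, adjusted p = 1.93e-05). Treated wild type was lowest, at 5.32, 4.91 and 5.39. Another Arntl probe set gave -0.04, so the call rests on the brighter probe set. Not called were Per1, with a difference of -0.30 (95% interval -0.77 to 0.17), Cry1, with -0.29 (-0.64 to 0.07), Nr1d1, with 0.08 (-0.16 to 0.32), and Npas2, with 0.18 (-0.09 to 0.45). Nr1d2 fell short of 1.5-fold without Clk/Clk mouse 1, at -0.55. Cry2, at -0.60, fell short without Clk/Clk mouse 1 (-0.54) or 2 (-0.58), or PPARα-null mouse 1 (-0.53) or 2 (-0.57).

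**Figure D4:**
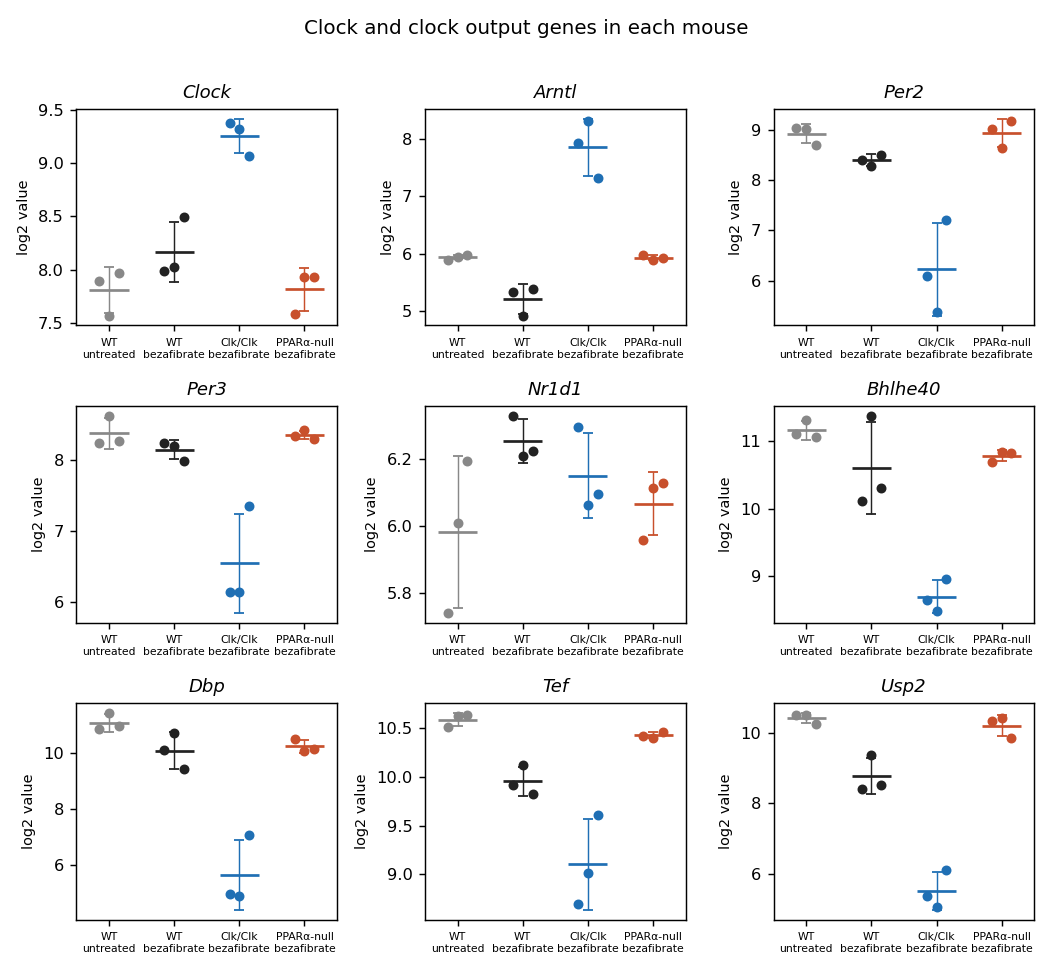
Log2 values of 9 clock and clock output genes in each of the 3 mice of 4 groups (points), with the group mean (long bar) and SD (error bar); each panel has its own axis range. Clock and Arntl are highest and Per2, Per3, Bhlhe40, Dbp, Tef and Usp2 lowest in Clk/Clk (Dbp 4.86 to 7.06 against 10.06 to 10.48 in PPARα-null), and Nr1d1 overlaps in all groups.

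The 250 bases before the start of 4 genes lower in Clk/Clk are shown because they hold the letters of a clock motif. Genes higher in Clk/Clk, such as Fgf21 and Krt23, and Per1 and Cry1, which were not called, hold such letters there too. Capitals mark an E-box (CACGTG, the letters that CLOCK and BMAL1 bind) or a D-box (TTATGTAA or TTACGTAA, read on either strand, the letters of Dbp, Tef and Hlf). No marked motif overlaps another. The sequences are from RefSeq, build GRCm38.p6, 5′ to 3′ on the gene's strand. Per3 is at chr4:151044666-151044915 on the minus strand, with D-boxes at -205 and -158, counted in bases from the gene's start. Tef is at chr15:81802423-81802672 on the plus strand, with an E-box at -127. Another Tef start, not shown, has an E-box at -138. Tspan4, a tetraspanin, is at chr7:141476130-141476379 on the plus strand, with an E-box at -51, and Coq10b, a coenzyme Q binding protein gene, at chr1:55052520-55052769 on the plus strand, with a D-box at -162 and an E-box at -78.
Per3: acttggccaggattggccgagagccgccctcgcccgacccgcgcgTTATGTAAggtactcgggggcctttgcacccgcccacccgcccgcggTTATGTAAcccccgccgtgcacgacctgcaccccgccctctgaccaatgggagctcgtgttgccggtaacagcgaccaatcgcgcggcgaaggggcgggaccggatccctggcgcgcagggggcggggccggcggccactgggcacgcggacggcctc
Tef: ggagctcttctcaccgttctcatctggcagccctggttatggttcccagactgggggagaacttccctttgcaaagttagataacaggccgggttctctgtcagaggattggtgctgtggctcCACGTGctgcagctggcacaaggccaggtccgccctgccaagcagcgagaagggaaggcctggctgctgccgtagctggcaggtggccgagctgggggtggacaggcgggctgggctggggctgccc
Tspan4: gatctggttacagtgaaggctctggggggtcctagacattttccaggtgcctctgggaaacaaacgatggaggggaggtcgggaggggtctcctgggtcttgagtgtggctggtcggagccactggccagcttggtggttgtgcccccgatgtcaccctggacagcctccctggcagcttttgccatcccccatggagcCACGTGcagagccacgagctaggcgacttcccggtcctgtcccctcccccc
Coq10b: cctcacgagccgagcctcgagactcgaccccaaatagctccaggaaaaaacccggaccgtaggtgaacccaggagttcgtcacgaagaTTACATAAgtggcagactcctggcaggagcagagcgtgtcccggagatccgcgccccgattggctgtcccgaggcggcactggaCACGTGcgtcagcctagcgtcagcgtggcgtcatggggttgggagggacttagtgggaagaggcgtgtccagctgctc

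Tspan4 read 8.02, 7.73 and 8.52 in Clk/Clk and 10.58, 10.92 and 10.76 in PPARα-null, and Coq10b 9.15, 9.07 and 9.19 against 10.41, 10.40 and 10.40. In the longer window of 250 bases before to 50 after the start, an E-box was present for 11.3% of the 10926 tested genes with a RefSeq promoter, for 107 (13.2%) of 808 higher genes and for 98 (11.6%) of 847 lower genes. A D-box was present for 0.879% of all, 8 (0.99%) of the higher and 18 (2.13%) of the lower genes. The PPARα-RXR motif DR1, searched on both strands only as an exact direct repeat of AGGTCA with 1 base of any kind between the copies, occurred in 7 genes (0.0641%), in 0 of the higher and 1 of the lower genes, which says only that these letters are not in this window. A gene was counted if any of its promoters held the motif. Of all 32851 RefSeq promoters, counted singly, 7.15% held the E-box, 1.06% the D-box and 0.0396% the DR1. Those shares are per promoter, so they cannot be set against the shares of genes. A match is a stretch of letters and not a shown binding site.

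Bile acid genes were called in both directions. Of 27, 10 were lower and 3 (Abcb4, Abcc4 and Amacr) higher, with a median of -0.17. The shares were 37% lower and 11.1% higher, beside 7.78% and 7.43% over all genes. In wild type the drug lowered 14 and raised 4. Cyp7a1, the rate-limiting enzyme of bile acid synthesis, read 6.92, 8.70 and 6.02 in Clk/Clk and 9.70, 10.69 and 9.59 in PPARα-null. The groups were -2.78 apart (SE 0.650, adjusted p = 0.0057) with a wide spread among Clk/Clk mice. Treated wild type read 5.5, 7.56 and 6.35, close to Clk/Clk, and untreated wild type 11.66, 10.84 and 10.68. The bile acid and hormone carrier Slco1a1 had hardly any spread, at 8.66, 8.70 and 8.63 against 12.72, 12.69 and 12.74, and gave the smallest adjusted p among the genes named here, 1.32e-10. Its treated wild-type values, 10.63, 10.82 and 10.50, lay midway. Akr1d1, a reductase of bile acid synthesis, differed by -2.46 and Slc10a1, the main bile acid uptake carrier, by -1.19.

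Glucose genes were lower too, with 12 of 22 genes of gluconeogenesis, glycolysis control and glycogen lower and 2 (Ppp1r3g and Pdk4) higher, and a median of -0.69. Slc2a2, the glucose transporter of hepatocytes, read 10.16, 9.82 and 8.87 in Clk/Clk and 12.61, 12.75 and 12.92 in PPARα-null. The difference of -3.14 (SE 0.282, adjusted p = 6.96e-06) exceeded the drug response of -1.20 in wild type. Gys2, the liver glycogen synthase, differed by -0.79, and Fbp1, a gluconeogenic phosphatase, by -0.67. Amino acid catabolism had 6 lower and 3 higher (Kmo, Cbs and Agxt) of 36, while the drug lowered 29 of the 36 in wild type. The shares were 16.7% lower and 8.33% higher, beside 7.78% and 7.43% over all genes. Oat, ornithine aminotransferase, read 9.54, 10.20 and 10.23 against 12.36, 12.02 and 12.03, and the urea cycle gene Asl differed by -1.01.

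Secreted defence proteins of the liver differed strongly. Of 35 complement and coagulation genes, 21 were lower and none higher in Clk/Clk, with a median of -0.78, and the drug lowered 27 of them in wild type. C8a, a subunit of the membrane attack complex, read 9.48, 8.83 and 8.70 in Clk/Clk and 12.87, 12.65 and 12.69 in PPARα-null. It also stood below treated wild type, at 10.58, 10.66 and 10.96, and its difference between mutants was -3.74 (SE 0.174, adjusted p = 5.46e-08). C8b, its partner subunit, differed by -3.02, Mbl2, a lectin of the complement cascade, by -1.94 and the protease gene Masp1 by -1.73 on its brightest probe set. The other 3 Masp1 probe sets above the dim level gave -0.38, -0.22 and -0.06, all short of 1.5-fold. Acute phase genes split, with 7 lower, among them Saa4 (-2.13) and Crp (-1.62), and 6 higher, among them Il1rn (1.41) and Itih3 (0.95), of 27.

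Genes that are higher in male than in female liver were among the lowest in Clk/Clk. Of 18 male-predominant genes, 12 were lower and 1 (Elovl3) higher, with a median of -2.03, and of 15 female-predominant genes 7 were higher and 1 (Fmo2) lower, with a median of 0.55. In wild type the drug lowered 13 and raised 1 of the male-predominant genes. It raised 8 and lowered 2 of the female-predominant genes there, so both lists also moved with the drug. All mice were male. Hsd3b5, a steroid-metabolising enzyme of male liver, read 6.30, 4.72 and 5.39 in Clk/Clk and 11.81, 11.01 and 11.60 in PPARα-null. The null livers were near untreated wild type (12.05, 12.75 and 12.50), and the Clk/Clk livers near treated wild type (4.66, 4.59 and 5.87). Mup10, a major urinary protein gene, read 6.45, 5.91 and 5.95 against 12.62, 11.91 and 11.81, and here treated wild type lay between, at 9, 9.12 and 8.14. The female-predominant Cyp2b9 read 12.37, 12.42 and 12.57 against 7.59, 7.74 and 7.01. Members of the Mup and Hsd3b families are similar in sequence and may share probe signal.

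The growth hormone and IGF1 axis, which sets many sex-dependent liver genes, had 9 lower and 3 higher (Irs2, Igfbp2 and Igfbp1) of 20. Igf1, the growth factor released by the liver, read 11.61, 11.60 and 11.79 in Clk/Clk and 12.87, 12.84 and 12.73 in the null. The difference of -1.15 (SE 0.0815, adjusted p = 1.23e-06) was close in size to the drug response of -1.08 in wild type on this brightest probe set. The other Igf1 probe sets gave differences of -1.64, -1.32 and -1.35, with a larger drug response on each. Their untreated wild-type means were 12.59, 13.29 and 13.45, and their treated ones 10.82, 11.60 and 11.88. The growth hormone receptor gene Ghr differed by -1.01, and Igfals, which carries IGF1 in blood, by -2.41. Esr1, the oestrogen receptor gene, read 6.08, 5.98 and 6.39 against 10.30, 10.07 and 9.75. Also among the 20 genes furthest below the null were Nrep (-4.33), Olfm3 (-4.23), Fam171b (-4) and the complement gene C6 (-3.82), with the Clk/Clk means of Olfm3 and Fam171b near background.

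Detoxification genes included some in which the null stood apart. Of 23 targets of the drug sensors CAR and PXR and Cyp2c family members, 10 were lower and 2 (Cyp2b9 and Cyp2b13) higher in Clk/Clk. These are 43.5% lower and 8.7% higher, beside 7.78% and 7.43% over all genes, so the higher share was near that of all genes. Cyp2c55 read 6.33, 6.56 and 6.16 in Clk/Clk, 10.63, 10.57 and 11.21 in PPARα-null and 6.79 to 7.95 over the 6 wild-type mice. The difference was -4.45 (SE 0.198, adjusted p = 3.86e-08), and the null livers were above every other mouse. Cyp2c54 and Cyp2c50 behaved differently, since both were low in treated wild type as well. Cyp2c54 read 6.05, 5.63 and 6.65 in Clk/Clk, 10.65, 10.51 and 9.85 in the null and 4.51, 4.03 and 5.21 in treated wild type. Cyp2b10, a standard CAR target, was not called (0.14, 95% interval -0.78 to 1.05, adjusted p = 0.835), and its probe sets disagreed in sign.

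NRF2 and glutathione genes had 10 higher and 7 lower of 26. The higher ones included the carbonyl reductase gene Cbr3, at 10.63, 10.63 and 8.37 in Clk/Clk against 5.92, 5.82 and 6.20, with Clk/Clk mouse 3 the lowest of its group. Srxn1, which repairs oxidised peroxiredoxins, differed by 1.89 and the glutathione transferase Mgst3 by 1.73. The lower ones included 4 members of the Gstm family, whose probe sets may share signal. Gstm2 read 8.87, 8.66 and 6.80 in Clk/Clk and 11.06, 11.77 and 11.20 in the null, while the 6 wild-type mice ran from 8.69 to 9.98.

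DNA replication and cell cycle genes went against the direction of the drug response. In wild type the drug raised 22 of 33 such genes and lowered 2, yet 22 of the 33 were lower and 1 (Cdkn1a) higher in Clk/Clk than in PPARα-null, with a median of -1.03. The mean log2 level over the list was 6.53 to 6.65 in Clk/Clk, 7.30 to 7.95 in the null, 7.71 to 8.70 in treated wild type and 6.69 to 6.83 in untreated wild type. By this list mean the Clk/Clk mice were the lowest, but their range lay only just below that of untreated wild type. Mcm10, a member averaging 7.59 in Clk/Clk and 11.41 in untreated wild type, widened that gap, while Ccna2 averaged 5.75 and 5.83. Clk/Clk and untreated wild type are therefore not set apart by the list mean alone. The range of the null mice overlapped that of treated wild type.

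Mcm6, a subunit of the replicative helicase, read 6.09, 6.07 and 6.18 in Clk/Clk and 7.89, 9.52 and 9.12 in PPARα-null. Treated wild type read 9.83, 10.77 and 9.33 and untreated wild type 6.97, 6.62 and 6.49, so the Clk/Clk livers were below untreated ones on this probe set. Another Mcm6 probe set averaged 4.99 in Clk/Clk and 5.02 in untreated wild type. The difference between the mutants was -2.73 (SE 0.397, adjusted p = 2.52e-04). Rrm2, the regulated subunit of ribonucleotide reductase, read 4.54, 4.93 and 4.86 against 7.75, 8.81 and 9.19, with Clk/Clk near background. Null mouse 1 was the lowest of its group for both genes. Ccna2, a cyclin of S phase and mitosis, differed by -1.25, and Mcm5 by -3. Mcm10 differed in the same direction, by -2.76, but the drug response of its probe set in wild type was -3.25, opposite to the helicase subunits. Cdkn1a, which encodes the cell cycle inhibitor p21, was higher by 1.81.

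**Figure D5:**
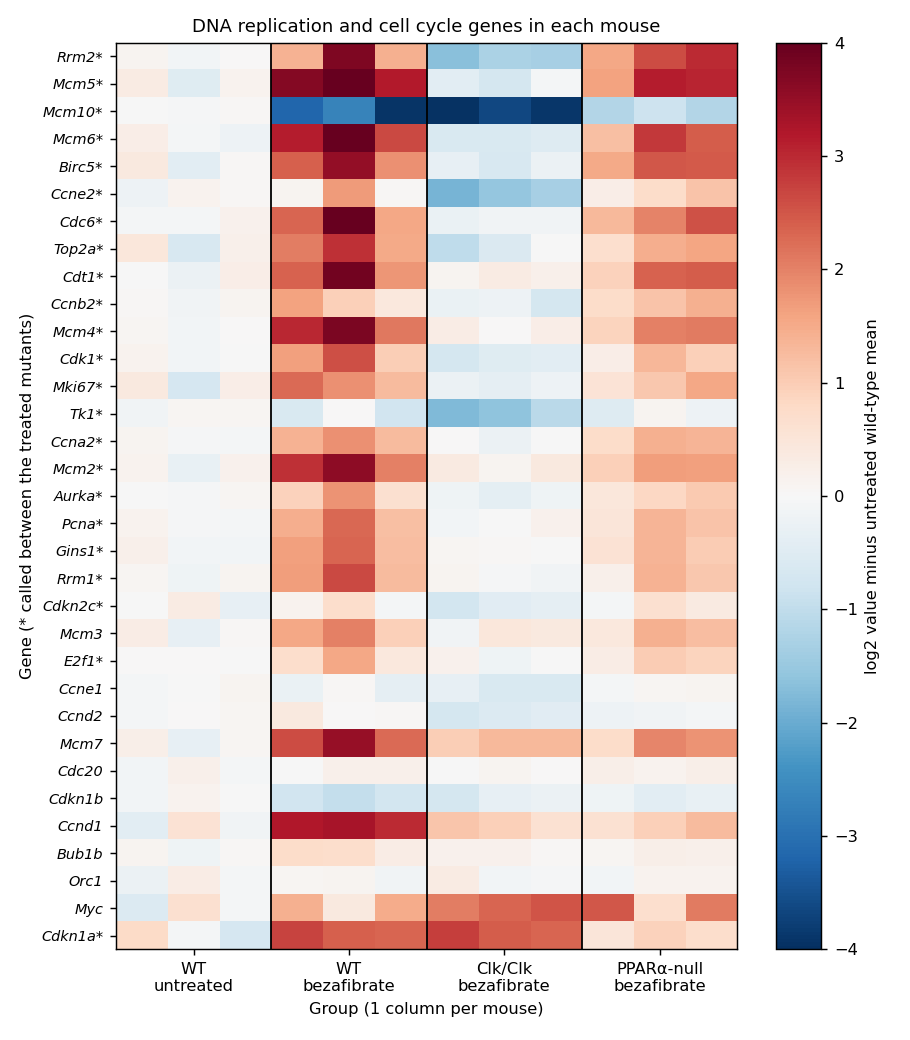
Heat map of 33 DNA replication and cell cycle genes (rows) in each of the 12 mice (columns), coloured by the difference in log2 value from the mean of untreated wild type, from -4 (blue) to 4 (red); a star marks genes called between the mutants. Most rows are red in treated wild type and, less deeply, in PPARα-null mice and pale or blue in Clk/Clk mice (Mcm6 6.07 to 6.18 against 7.89 to 9.52), Mcm10 is blue in every treated group, and Cdkn1a is red in Clk/Clk.

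Genes of ER stress were called at 16.1%, near the 15.2% of all genes, those of type I interferon at 21.7% and heat shock and cold-inducible genes at 50%. Of 31 genes of ER stress and the integrated stress response, 4 were higher (Ddit3, Atf3, Psat1 and Trib3) and 1 (Herpud1) lower, and the lower count was 2 without Clk/Clk mouse 2 or 3. Trib3, a pseudokinase of that response, read 8.22, 9.39 and 9.54 in Clk/Clk against 6.47, 6.46 and 6.07. Of 16 heat shock and cold-inducible genes, 5 were higher (Hsp90aa1, Hspb8, Cirbp, Hspa4l and Hspb1) and 3 lower (Hspa1a, Hspa1b and Dnajb4). The lower count was 1 without Clk/Clk mouse 2, whose Hspa1a value of 5.60 lay below those of the other Clk/Clk mice, 7.28 and 6.91. Of 23 type I interferon genes, 1 was higher (Rsad2) and 4 lower (Ifih1, Stat2, Oasl1 and Ddx58), although the drug raised 15 of them in wild type. Without Clk/Clk mouse 2 the higher count was 4.

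Outside the drug response, 833 called genes (40.3%), 384 higher and 449 lower, were not called for the drug in wild type and differed there by less than 1.5-fold. Of all 13598 genes tested, 10721 met the same condition, a larger share than among the called genes. Ptger3, a prostaglandin receptor gene, stood out as high in Clk/Clk alone. It read 7.31, 7.35 and 7.31 there, 4.75, 3.92 and 3.07 in PPARα-null, and 3.07 to 3.54 in the 6 wild-type mice, so that all but the Clk/Clk values were near background. Zfas1 and Snhg12, both host transcripts of small nucleolar RNAs, were high in Clk/Clk alone as well. Zfas1 read 10.28, 10.36 and 10.64 against 8.04, 8.10 and 7.70, and Snhg12 read 9.17, 9.42 and 9.71 against 7.47, 7.33 and 7.37. Sucnr1, the succinate receptor gene, Ndrg1, and Chka, a choline kinase gene, had differences of 2.39, 2.05 and 1.99. By contrast, 2010315B03Rik was low in the null alone, at 6.24, 6.20 and 6.13 beside 8.93 to 9.67 in the other 9 mice. Lars2, the mitochondrial leucyl-tRNA synthetase gene, was likewise low there, at 6.63, 6.67 and 6.79. For Gpr135 (1.97), a second probe set gave 2.55 and the other -0.19, and for 1700029I15Rik (2.10), the other fell short of 1.5-fold at 0.55. Of the 81 called genes of the naming rule with several probe sets above the dim level, 22 had at least 1 that was not called the same way. Among them, another probe set gave 0.29 for Lars2, 0.06 for Mgst3, 0.20 for Ddit3, -0.11 for Slc15a2, -0.11 for Nr1d2, -0.37 for Thrsp and -0.43 for Ccna2, and 2 of the 4 for Npnt gave 0.27 and 0.33.

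Mme, which encodes the peptidase neprilysin, was the largest lower gene without a drug response. It read 3.86, 3.62 and 4.37 in Clk/Clk, near background, and 9.70, 9.51 and 9.53 in PPARα-null. The 6 wild-type mice, from 8.03 to 8.88, lay near the null, and the difference was -5.63 (SE 0.230, adjusted p = 2.20e-08). Prg4, a lubricating glycoprotein gene, read 7.21, 7.20 and 7.06 against 9.89, 9.69 and 9.82, with all wild-type mice from 9.38 to 10.24. Trhde, a peptidase gene, was high in the null alone, at 5.54, 5.51 and 5.45, and 2.75 to 3.20 in the other 9 mice, all near background. Blnk, an adaptor protein gene, Ces2b, a carboxylesterase gene, and Slc15a2, a peptide transporter gene, differed by -2.61, -3.07 and -3.18, and Nat8f5 by -2.97. Dio1, which activates thyroid hormone, was called with a wide spread. It read 3.97, 4.69 and 3.85 in Clk/Clk and 6.33, 10.59 and 10.39 in the null, and 1 of the untreated wild-type mice, at 6.75, was also far below the other 2, at 10.27 and 11.16.

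Genes lying near Ppara and Clock were counted because the null line came from another strain. Among the 200 tested genes nearest to Ppara on chromosome 15, 26 (13%) were called, and among the 50 nearest 11 (22%), beside 15.2% over all genes. Near Clock on chromosome 5 the counts were 40 of 200 (20%) and 12 of 50 (24.0%). Called genes near Ppara included Abcd2, Pmm1, Chkb, Pnpla3, Celsr1 and Bik. Pmm1, a phosphomannomutase gene, read 10.17, 10.50 and 10.55 in Clk/Clk and 5.74, 5.51 and 5.28 in PPARα-null, and Chkb, a choline kinase gene, 11.56, 11.52 and 11.61 against 8.47, 8.58 and 8.45. Both were also raised by the drug in wild type, by 3.29 and 2.39. Near Clock, Ugt2b1, a glucuronosyltransferase gene, read 9.91, 9.96 and 9.81 against 13.51, 13.27 and 13.34, and Ccng2, a cyclin gene, 10.66, 11.11 and 10.95 against 8.36, 8.44 and 8.28. Fam47e, Gpat3, Ugt2a3 and Ugt2b37 were also called there. The part of the strain of origin in these values was not tested.

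In whole liver, fewer cells of a type and less RNA per cell cannot be told apart, so marker genes are given beside the lists. Over all genes 15.2% were called. The share was 15.4% for hepatocyte genes, near that of all genes, and 6.25%, below it, for sinusoidal endothelial and for stellate cell genes. For macrophage and Kupffer cell genes it was 27.8%. Hepatocyte identity genes were high in every mouse, with list means of 13.20 to 13.30 in Clk/Clk and 13.48 to 13.55 in PPARα-null, and 2 of 13 (Cebpa and Serpina1c) were lower. Of 18 macrophage and Kupffer cell genes 5 were lower (Clec4f, Cd5l, Timd4, Vsig4 and Adgre1) and none higher, with means of 7.92 to 8.19 against 8.28 to 8.43. Clec4f, which marks Kupffer cells, read 8.64, 8.53 and 8.78 against 9.51, 9.63 and 9.58. Without Clk/Clk mouse 2 the lower count was 3 and the Cd5l difference -0.58, and without untreated wild-type mouse 2 the higher count was 1. Sinusoidal endothelial genes had 1 higher (Bmp2) of 16, with means of 8.27 to 8.40 against 8.39 to 8.47, and 1 lower without Clk/Clk mouse 3. Stellate cell genes had 1 lower (Col3a1) of 16, with means of 8.09 to 8.16 against 8.13 to 8.38; without PPARα-null mouse 2 there were 3 lower, and without Clk/Clk mouse 2 there was 1 higher.

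Of 6 adipocyte genes tested 4 were higher (Lipe, Cidea, Cidec and Fabp4), with means of 7.53 to 8.22 in Clk/Clk and 6.17 to 6.83 in PPARα-null, while the defining markers Adipoq, Lep and Ucp1 were below the level for testing. Fabp4 read 13.56, 13.46 and 12.94 against 9.65, 10.16 and 10.73, and in treated wild type 13.45, 13.18 and 13.23. The Cidea call was lost without Clk/Clk mouse 1 or 2 or any PPARα-null mouse, with adjusted p of 0.0649 to 0.133. Cholangiocyte genes had 1 higher (Krt23) and 1 lower (Onecut1) of 8, with means of 6.41 to 6.53 against 6.16 to 6.20, and Krt7 and Cftr were below the level for testing. The higher count was 2 without Clk/Clk mouse 2, and the lower count 2 without Clk/Clk mouse 3. Blood and lymphoid genes had 1 higher (S100a9) and 2 lower (S100a8 and Alas2) of 12, with means of 5.85 to 5.90 against 6.10 to 6.33. S100a8 and S100a9 encode partners of the same complex and differed in opposite directions, by -2.08 and 1.19, and S100a9 was not called (adjusted p 0.0649 to 0.132) without Clk/Clk mouse 2 or 3 or any PPARα-null mouse. Of 8 pancreas and muscle genes, Pnliprp1 was higher, with means of 6.17 to 6.38 against 5.88 to 5.92. Calls made up 66.7% of adipocyte, 25% of cholangiocyte, 25% of blood and lymphoid and 12.5% of pancreas and muscle genes, beside 15.2% over all genes. The part of these cell types in the gene differences was not tested.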

How the data were processed

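The authors deposited log2 values for each probe set, made with RMA per the submitters' processing notes, whose version and settings the sources used here do not give. Of 45101 probe sets, 64 array controls were left out. Of the other 45037, 34945 carried 1 symbol in GEO's platform annotation, 932 carried several and 9160 had no symbol there. The symbols of 204 probe sets had no match in the RefSeq gene table (GRCm38.p6) and were kept. Probe sets at or above the 40th percentile of their array (4.87 to 4.92) on at least 3 arrays were kept, 28344 in all and 23888 with 1 symbol. The brightest probe set stood for each of 13598 genes. All 12 arrays were fitted with 4 group means in limma 3.58.1 (R 4.3.3, lmFit and eBayes) and p-values adjusted by Benjamini-Hochberg over all genes. The fit was tested on simulated data. On arrays there is no read depth, and the 3 mice per group limit precision.

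Named genes were the 20 largest differences each way with groups not overlapping, the 10 largest each way without a drug response, up to 4 per list by adjusted p, up to 6 near Ppara and near Clock, and a fixed set of clock and PPARα genes. Called members of lists with 5 or fewer calls in a direction, and 48 further list members, were also named after their values were seen. Some genes of the fixed set are not reported here. The members and the 35 lists were chosen with earlier results of these data known. Same-numbered Clk/Clk and PPARα-null arrays deviated from their group means with correlations of 0.017, 0.02 and 0.005. Differently numbered ones gave -0.059 to 0.045. Such values cannot exclude a shared litter or day, and the main fit did not treat the mice as pairs. Alternatives changed the filter, probe set choice, scaling, arrays, weights, thresholds and block, and left out each array in turn.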

Additional observations from a re-analysis of the deposited data

How the results depend on the processing

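A 2-fold threshold lowered the counts by construction, to 922 genes called (446 higher and 476 lower), 1757 probe sets, 275 drug-raised genes higher and 70 lower, 196 drug-lowered genes lower and 5 higher, and 229 called genes without a drug response. It gave 6% called near Ppara and 8.5% near Clock. An adjusted p under 0.01 left 86 drug-raised genes lower in Clk/Clk, and the 50 nearest genes gave 22% near Ppara. With probe sets of ambiguous suffix left out, Gpr135 (-0.19) and Arntl (-0.042) reversed, since another probe set stood for each gene.

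Leaving out each of the 12 arrays in turn gave 1987 to 2093 genes called, 954 to 1064 higher and 1010 to 1081 lower, and 4105 to 4311 probe sets. Drug-raised genes were higher in 569 to 603 and lower in 99 to 167, drug-lowered genes lower in 418 to 478 and higher in 20 to 28, and 807 to 883 called genes had no drug response. Treated wild type was nearer to Clk/Clk for 62.3% to 67.2%, and 11.5% to 13% were called near Ppara and 19.5% to 21% near Clock.

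With the replicate number as a block, although the labels do not say what it marks, 2081 genes were called (1014 higher and 1067 lower). Of these, 2055 were shared with the fit without the block. The other settings gave 1769 genes (ambiguous probe sets left out) to 2107 (array weights). Of 199 named genes, 179 kept their call and direction wherever they had a value in the 22 settings other than the thresholds, and 20 changed in at least 1. There, 26 had no value with ambiguous probe sets left out and 3 none under the stricter filter. Of the 168 called, 22 were lost at 2-fold and 3 at an adjusted p under 0.01. The median difference of all genes was -0.0051, and 0.0148 under median centring. The count of probe sets has no value where genes or filters were redefined, and the fit of the 6 mutant arrays gives no drug response.

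Limits: 3 mice per group, no untreated mutant, signal near background for the lowest genes and near the top of the scale for the highest.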

Other observations

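Probe sets without a single gene name were also compared, in the fit over all 45037 probe sets. Of 9160 without a symbol, 527 (5.75%) were called, 251 higher and 276 lower in Clk/Clk, and of 932 with several symbols, 91 (9.76%), 53 higher and 38 lower. The largest difference among those with no symbol was 5.51 (SE 1.42, limma adjusted p = 0.0139) for 1420062_at. It read 10.65, 11.5 and 11.34 in Clk/Clk and 5.33, 6.01 and 5.62 in PPARα-null, but in treated wild type 5.79, 11.18 and 10.25, and in untreated wild type 11.32, 5.35 and 10.37, so the wild-type mice varied within each group. The largest among those with several symbols was 5.46 (SE 0.114, limma adjusted p = 3.84e-11) for 1418328_at. The probe set 1446368_at, with no symbol, gave -4.08.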
